A study of Mus musculus with 9 samples.

Results

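Described here are 10 genes that mark spermatogonial stem cells (SSC) or keep them dividing without differentiation. They are the receptor genes Gfra1 and Ret, the transcriptional regulators Etv5, Bcl6b, Lhx1 and Id4, whose transcripts depend on GDNF in cultured SSC, and the self-renewal genes Zbtb16, Sall4, Foxo1 and Nanos2. They were listed by name, with earlier results of these data known. Of the 10 genes, 9 had a locus in the deposited RNA-seq table, which covered 15425 protein-coding genes. Nanos2 matched no locus and was not analysed here.

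GDNF is a secreted growth factor made in the testis by Sertoli and peritubular cells. It binds Gfra1, a co-receptor anchored to the outer membrane by lipid, and the pair activates the receptor tyrosine kinase Ret. Ret signals through adaptor proteins to the PI3K-AKT, Src family and MAPK routes, and spermatogonia that lose GDNF, Gfra1 or Ret stop renewing and differentiate.

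The study compared the transcriptomes of SSC, iPSC derived from SSC (SSCiPSC) and iPSC derived from fetal fibroblasts (fiPSC), with 3 RNA-seq libraries of each. All mice carried 2 alleles, Gt(ROSA)26Sor tm1(rtTA*M2)Jae and, at Col1a1, the allele tm3(tetO-Pou5f1,-Sox2,-Klf4,-Myc)Jae, so every group, SSC included, held the doxycycline-inducible Oct4, Sox2, Klf4 and c-Myc transgenes. SSC were testis cells of pups at postnatal day 6, enriched by differential plating and by magnetic sorting with an antibody to Gfra1, and used at passage 0. The iPSC were obtained with doxycycline and LIF, grown to passage 10 to 11 by the labels and to later passages by the study's methods, and sorted for the surface antigen SSEA1. The fibroblasts came from male fetuses. The labels name doxycycline in the medium, whereas the methods describe its withdrawal. The study calls the libraries biological samples. Whether the 3 of a group came from separate lines, animals or pools is not given in the sources used here, so p-values measure only the spread between these libraries. The fibroblasts themselves were not analysed here.

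Levels are in FPKM, fragments scaled to transcript length and to the mapped fragments of the library, a unit corrected for length. The depth recovered from the lowest values was 1.76, 4.63 and 1.38 M fragments (M for mega) in SSC replicates 1, 2 and 3, against 13.2 to 17.6 M in the iPSC libraries. SSC values of rare transcripts are therefore less precise. In bulk RNA, fewer cells of a type and less RNA per cell cannot be told apart.

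The SSC libraries were checked against markers of the cells that a testis preparation can hold. Of 12 pan germ cell markers, 11 had a locus of their own, and none of these was at 0 in all SSC libraries. Their summed level was 648, 866 and 577 FPKM in SSC replicates 1, 2 and 3, with Dazl, an RNA-binding protein of germ cells, the most abundant. In iPSC the sum lay between 89.0 and 134 FPKM.

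Markers of other testis cells were present in the same SSC libraries. Sertoli markers (10 of 12 with a locus of their own) summed to 1526, 1641 and 1405 FPKM, led by Clu, and 4 of 7 Leydig markers summed to 164, 130 and 244 FPKM, led by Cyp11a1, the enzyme that starts steroid synthesis. Macrophage markers (7 of 8, led by the complement gene C1qa) reached 64.6, 23.8 and 198 FPKM. Mast cell markers (5 of 5, led by the tryptase gene Tpsab1) reached 92.2, 335 and 970 FPKM. SSC replicate 3 was thus the highest of the 3 for both blood cell lists, and also for the 7 fibroblast markers led by Col3a1 (90.4, 83.4 and 263 FPKM). Peritubular myoid markers (4 of 6, led by Acta2) summed to 85.8, 76.9 and 70.2 FPKM, and endothelial markers (6 of 6, led by Pecam1) to 117, 56.8 and 96.8 FPKM. In iPSC the endothelial sum lay between 83.4 and 127 FPKM, so it did not set SSC apart. For the other lists of this paragraph every SSC library was above every iPSC library. The same SSC replicate 3 was the lowest of the SSC libraries for 8 of the 9 self-renewal genes with a locus, all but Foxo1. It was also the lowest for the germ cell sum. This library was the shallowest, at 1.38 M fragments. How many of all loci were lowest in it was not counted, so the 8 of 9 is not a result about these genes. The part of other testis cells in the results was not tested.

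**Figure D1:**
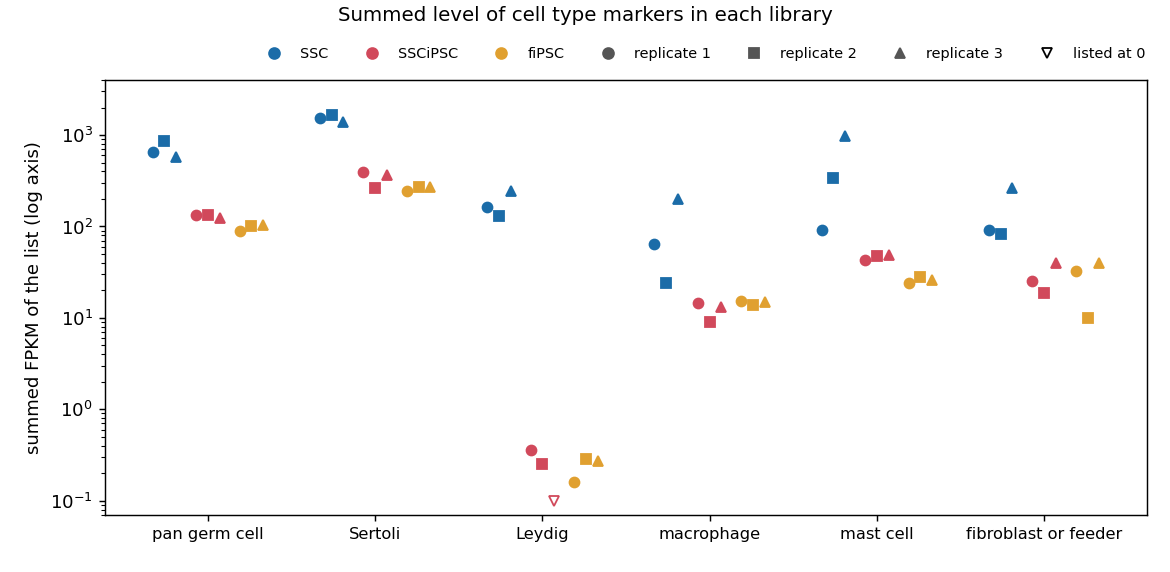
Summed FPKM of 6 marker lists in the 9 libraries on a log axis, with color for the group and shape for the replicate. Among the SSC libraries (blue), replicate 3 (triangle) has the highest macrophage, mast cell, Leydig and fibroblast sums and the lowest germ cell and Sertoli sums.

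Both receptor genes were lower in iPSC. Gfra1 (ENSMUSG00000025089, GRCm38 chr19:58235604-58455909, minus strand) encodes the GDNF-binding co-receptor and is also the target of the antibody used to sort the SSC. The presence of Gfra1 in them is thus no independent sign of their identity, and which cells of the sorted fraction held it was not tested. The level of Gfra1 in SSC replicates 1, 2 and 3 was 37.7, 34.1 and 23.9 FPKM. In SSCiPSC it was 0.171, 0.125 and 0.0652 FPKM, and in fiPSC 0.0185, 0.121 and 0.0956 FPKM. Every SSC library was above every iPSC library, and the ranges of SSCiPSC and fiPSC overlapped. The SSC mean of 31.9 ± 7.14 FPKM (SD, n = 3) was 265-fold that of SSCiPSC and 407-fold that of fiPSC. On the log2(FPKM + 1) scale, which understates such a ratio, the fold change of Gfra1 was -4.85 (SE 0.249) in SSCiPSC and -4.91 (SE 0.230) in fiPSC, with limma adjusted p = 7.15e-05 and 5.57e-05. The estimated number of fragments behind the iPSC values ran from 1.10 to 12.1 per library.

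Ret (ENSMUSG00000030110, chr6:118151745-118197718, minus strand), the signaling receptor of the complex, was at 51.0, 52.8 and 40.3 FPKM in SSC. It was at 0.177, 0.190 and 0.203 FPKM in SSCiPSC and at 0.378, 0.223 and 0.592 FPKM in fiPSC. The groups with SSC did not overlap, and all 3 fiPSC libraries also lay above all 3 SSCiPSC libraries, at 13.8 to 48.3 estimated fragments per library. The log2 fold change of Ret was -5.36 (SE 0.201) in SSCiPSC and -5.13 (SE 0.193) in fiPSC, with limma adjusted p = 3.15e-05 and 2.84e-05. This corresponded to 253-fold and 121-fold lower means. Both further loci within Ret were also higher in every SSC library than in any iPSC library.

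The ratio of Ret to Gfra1 was 1.35, 1.55 and 1.68 in the 3 SSC libraries, so Ret was the higher of the pair in each. In iPSC, where both genes rested on few fragments, the ratio ran from 1.04 to 20.5.

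**Figure D2:**
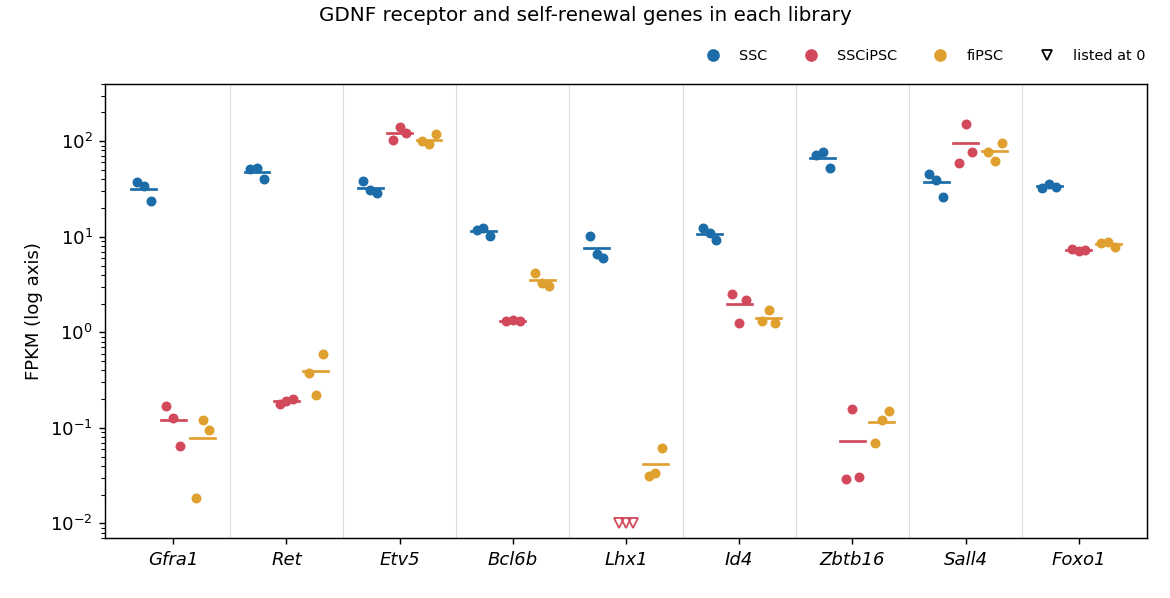
FPKM of the 9 genes with a locus in each library on a log axis, with points for libraries in replicate order and bars for group means. Open triangles mark libraries listed at 0. SSC (blue) lie above both iPSC groups for 7 genes, the locus of Bcl6b among them, and below them for Etv5 and Sall4.

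The regulators downstream of GDNF did not move in 1 direction. Etv5 rose in iPSC, while Lhx1, Id4 and the locus that holds Bcl6b fell. Etv5 (ENSMUSG00000013089, chr16:22381309-22439719, minus strand) encodes an ETS factor of the PEA3 family that SSC need for continued self-renewal. It was at 38.8, 30.7 and 28.9 FPKM in SSC, at 103, 143 and 123 FPKM in SSCiPSC, and at 99.98, 93.96 and 118 FPKM in fiPSC. Every iPSC library exceeded every SSC library. The difference was 1.87 (SE 0.179) on the log2 scale in SSCiPSC and 1.64 (SE 0.152) in fiPSC, or 3.75-fold and 3.18-fold, with limma adjusted p = 0.000380 and 0.000339. Under quantile normalization the difference in SSCiPSC was smaller, at 1.22. Within the interval of Etv5 stood 15 further loci, and 13 of them were higher in every iPSC library than in any SSC library. These loci lie in the same gene and are not independent measurements.

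Bcl6b (ENSMUSG00000000317, chr11:70224128-70229798, minus strand), a zinc finger repressor related to Bcl6, had no locus of its own. The locus that covered it, chr11:70217135-70229746, also held the monocarboxylate transporter gene Slc16a13, and the values belong to both genes together. They were 11.8, 12.5 and 10.2 FPKM in SSC, 1.31, 1.33 and 1.33 FPKM in SSCiPSC, and 4.22, 3.29 and 3.06 FPKM in fiPSC. The 3 groups stood apart, with SSC highest and SSCiPSC lowest. The log2 fold change of the locus was -2.42 (SE 0.214) in SSCiPSC and -1.47 (SE 0.184) in fiPSC, or 8.69-fold and 3.26-fold lower means, with limma adjusted p = 0.000294 and 0.00102. A further locus with the same ends and no strand was at 1.825, 2.09 and 0 FPKM in SSC and at most at 0.230 FPKM in iPSC, and its groups overlapped at 0.

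Lhx1 (ENSMUSG00000018698, chr11:84518284-84525535, minus strand), a LIM homeobox factor, was the least abundant of the 9 genes in SSC, at 10.1, 6.61 and 6.05 FPKM. It was listed at 0 in all 3 SSCiPSC libraries. In fiPSC it was at 0.0313, 0.0333 and 0.0614 FPKM, which is 1.53 to 3.49 estimated fragments per library. Groups with SSC did not overlap. A count of 0 still allows 3 fragments, for counting error only, which would be 0.0516 to 0.0594 FPKM per SSCiPSC library. The values of fiPSC replicates 1 and 2 lay below these limits and that of replicate 3 just above them. The fold change of Lhx1 was -3.07 (SE 0.266) and -3.01 (SE 0.250) on the log2(FPKM + 1) scale, values that depend on the added 1 and bound no ratio (limma adjusted p = 0.000280 and 0.000246). A further short locus at the 5′ end of Lhx1 was at 16.4 FPKM in SSC replicate 1 and listed at 0 in all other libraries, SSC replicates 2 and 3 included.

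Id4 (ENSMUSG00000021379, chr13:48261228-48266026, plus strand), an inhibitor of basic helix-loop-helix factors, was at 12.4, 10.9 and 9.16 FPKM in SSC. It remained measurable in iPSC, at 2.50, 1.25 and 2.196 FPKM in SSCiPSC and 1.31, 1.70 and 1.25 FPKM in fiPSC. Every SSC library was higher than every iPSC library, and the iPSC groups overlapped. The means were 5.46-fold lower in SSCiPSC and 7.61-fold lower in fiPSC, with log2 fold changes of -2.0 (SE 0.266) and -2.28 (SE 0.209) and limma adjusted p = 0.00121 and 0.000328. Transcripts of A330033J07Rik and Gm49291 on the other strand overlap the start of Id4. Those of Gm16277, Gm14261 and Gm20402 likewise overlap Gfra1, Sall4 and Foxo1, in that order. The study names a stranded library kit, but whether the authors' counting used strand is not given in the sources used here. The further locus at the 5′ end of Id4 was also higher in every SSC library.

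Of the other self-renewal genes, Zbtb16 and Foxo1 fell and Sall4 rose. Zbtb16 (ENSMUSG00000066687, chr9:48654297-48836222, minus strand) encodes PLZF, a repressor of undifferentiated spermatogonia. With 72.0, 77.4 and 51.9 FPKM it was the most abundant of the 9 genes in SSC by its mean. It was at 0.0294, 0.157 and 0.0308 FPKM in SSCiPSC and at 0.0701, 0.122 and 0.151 FPKM in fiPSC. No iPSC library came near an SSC library. The means were 927-fold lower in SSCiPSC and 586-fold lower in fiPSC. The SSCiPSC mean rested mostly on replicate 2, with 10.7 estimated fragments against 2.30 in each of the others, and without that library the ratio was 2229. The values of SSCiPSC replicates 1 and 3 lay below the 0.0384 and 0.0402 FPKM that a count of 0 would allow there. Its log2 fold changes were -5.97 (SE 0.222) and -5.91 (SE 0.199), with limma adjusted p = 3.11e-05 and 2.36e-05, and both further loci at its 3′ end were higher in every SSC library.

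Foxo1 (ENSMUSG00000044167, chr3:52268336-52353221, plus strand), a forkhead factor that AKT keeps out of the nucleus, was at 32.1, 35.6 and 33.2 FPKM in SSC, at 7.43, 7.02 and 7.20 FPKM in SSCiPSC, and at 8.62, 8.91 and 7.74 FPKM in fiPSC. None of the 3 groups overlapped. The log2 fold change of Foxo1 was -2.07 (SE 0.139) in SSCiPSC and -1.88 (SE 0.118) in fiPSC, or 4.66-fold and 3.99-fold, with limma adjusted p = 0.000137 and 0.000117. All 3 further loci within Foxo1 were higher in every SSC library.

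Sall4 (ENSMUSG00000027547, chr2:168748332-168767943, minus strand), a zinc finger factor of both germ cells and pluripotent cells, was at 45.9, 39.7 and 25.9 FPKM in SSC. It was at 59.1, 150.5 and 76.7 FPKM in SSCiPSC and at 77.4, 62.2 and 96.0 FPKM in fiPSC. SSCiPSC replicate 2 was far above its group. Every iPSC library was still above every SSC library. Sall4 was higher by 1.26 (SE 0.381) on the log2 scale in SSCiPSC with limma adjusted p = 0.0318, and by 1.07 (SE 0.255) in fiPSC with limma adjusted p = 0.0133, or 2.57-fold and 2.11-fold. This was the least secure change of the 9. The adjusted p stayed below 0.05 in 10 of 15 alternative settings for SSCiPSC (range 0.0137 to 0.162) and in 12 of 15 for fiPSC (range 0.0102 to 0.108). Without SSCiPSC replicate 2 the difference in SSCiPSC was 0.88 with limma adjusted p = 0.0630. A second locus at the 3′ end of Sall4, chr2:168747573-168749767, was at 34.3, 43.3 and 33.1 FPKM in SSC and was also higher in all iPSC libraries.

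Across the genes, all 9 passed the test (limma adjusted p below 0.05) in SSCiPSC against SSC, 2 of them higher and 7 lower, where 50.3% of all loci tested passed, 26.2% higher and 24.1% lower. In fiPSC against SSC the same 9 passed, again 2 higher and 7 lower, beside 51.8% of all loci, 28.0% higher and 23.7% lower. Gfra1, Ret, Zbtb16 and Lhx1 were below 1 FPKM in every iPSC library and entered the test only through SSC, so that they had to differ. The filter asked for 1 FPKM in 3 of the 6 libraries, and genes of the lists below that passed it through 1 group alone are named or counted with the lists, since it fixed their direction. A gene with only some libraries of its lower group at 1 FPKM also needed the higher group to pass, and is not in those counts. The median log2 fold change of the 9 genes was -2.42 in SSCiPSC and -2.28 in fiPSC, and that of all loci was 0.11 and 0.17. Of the other 5 genes, whose direction the filter did not fix, 3 fell and 2 rose, with medians of -2.0 and -1.47. The Bcl6b locus, whose values also belong to Slc16a13, is in all these counts and medians. The median of -2.42 for the 9 genes in SSCiPSC and that of -1.47 for the 5 genes in fiPSC are its own values. Both comparisons share the SSC libraries. The groups of all 9 genes were apart in both comparisons, 2 higher and 7 lower. Of all loci, 59.8% did not overlap in SSCiPSC against SSC (31.1% higher, 28.7% lower) and 61.6% in fiPSC against SSC (33.1% higher, 28.5% lower). Taken gene by gene, an exact two-sided permutation test of 3 libraries against 3 has 0.1 as its smallest p, and it gave 0.1 for each of the 9 genes against SSC.

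**Figure D3:**
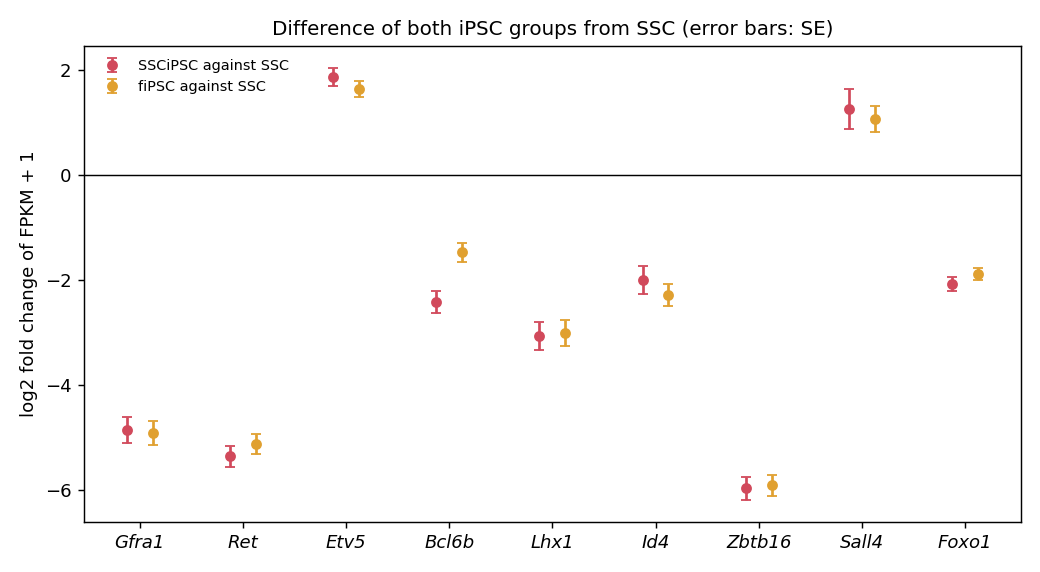
Log2 fold change of FPKM + 1 in SSCiPSC (red) and fiPSC (yellow) against SSC for 9 genes, with error bars of 1 SE. Etv5 and Sall4 lie above the zero line and the other 7 genes below it, from -1.47 for the Bcl6b locus in fiPSC to -5.97 for Zbtb16 in SSCiPSC.

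The order of the 9 levels differed between the groups. In SSC the order by mean was Zbtb16, Ret, Sall4, Foxo1, Etv5, Gfra1, the Bcl6b locus, Id4 and Lhx1, and the only neighbors whose ranges did not overlap were Gfra1 and the Bcl6b locus. In SSC, Zbtb16 stood above 94.1% of the protein-coding genes with a locus, Gfra1 above 82.4% and Lhx1 above 46.5%. In SSCiPSC, Etv5 and Sall4 led with overlapping ranges, above 94.4% and 92.6% of genes, and Foxo1 followed at a distance. Then came Id4 and the Bcl6b locus, whose ranges overlapped, then Ret, then Gfra1 and Zbtb16, which overlapped, and Lhx1 last. In fiPSC the first 3 genes were the same, with the Bcl6b locus above Id4 and Zbtb16 above Gfra1, although the ranges of Zbtb16 and Gfra1, and of Gfra1 and Lhx1, overlapped. The ratio of Sall4 to Zbtb16 was 0.638, 0.514 and 0.499 in the SSC libraries and at least 509 in every iPSC library.

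Between the iPSC groups the clearest separation was that of the Bcl6b locus, which did not pass the adjusted test. Only Id4, Etv5, the Bcl6b locus, Sall4 and Foxo1 were abundant enough for the test of fiPSC against SSCiPSC, and 0 of these 5 passed, beside 0.0678% of all loci. The Bcl6b locus was 2.66-fold higher in fiPSC, with a log2 fold change of 0.95 (SE 0.181) and no overlap. Its limma p was 0.00106 before adjustment, the only one of the 5 below 0.05, and 0.191 after it. Foxo1 was 1.17-fold higher in fiPSC without overlap (log2 fold change 0.20, SE 0.135, limma adjusted p = 0.618). Of all loci tested, 18.6% did not overlap between these groups. The differences for Etv5 (-0.23, SE 0.152), Id4 (-0.28, SE 0.225) and Sall4 (-0.19, SE 0.337) did not pass the test, and their groups overlapped. Such a result does not show that the groups were equal.

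Upstream sequences are shown for the 4 measured genes with a RefSeq start site whose upstream bases lie outside their own annotated exons, so that the 3 genes that fell can be set beside Etv5, which rose. Of the 10 genes, 6 matched the RefSeq promoter table (GRCm38.p6), and for Etv5 the outermost start is shown. The stretches below run 5′ to 3′ on the strand of the gene, up to the start site or the first annotated exon base. Capitals mark 3 motifs on either strand. One is GGGCGG, known as the GC box. Another is CCAAT, a motif of many promoters. The last is GTAAACA, a forkhead motif. The letters ATGCAAAT, the octamer, were searched in the same way, as was the TATA box with the letters TATAAA. No capitals of different motifs overlap.
Lhx1, chr11:84525536-84525784, minus strand: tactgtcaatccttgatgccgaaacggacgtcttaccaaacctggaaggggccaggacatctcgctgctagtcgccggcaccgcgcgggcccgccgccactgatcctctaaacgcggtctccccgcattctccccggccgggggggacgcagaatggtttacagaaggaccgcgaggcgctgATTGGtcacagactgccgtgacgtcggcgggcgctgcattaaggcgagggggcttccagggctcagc
Id4, chr13:48260866-48261115, plus strand: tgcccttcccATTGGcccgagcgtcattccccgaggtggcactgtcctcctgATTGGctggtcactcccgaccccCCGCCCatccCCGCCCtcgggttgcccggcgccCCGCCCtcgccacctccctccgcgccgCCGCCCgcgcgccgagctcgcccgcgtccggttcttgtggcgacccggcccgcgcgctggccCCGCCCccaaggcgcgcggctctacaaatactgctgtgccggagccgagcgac
Foxo1, chr3:52268087-52268335, plus strand: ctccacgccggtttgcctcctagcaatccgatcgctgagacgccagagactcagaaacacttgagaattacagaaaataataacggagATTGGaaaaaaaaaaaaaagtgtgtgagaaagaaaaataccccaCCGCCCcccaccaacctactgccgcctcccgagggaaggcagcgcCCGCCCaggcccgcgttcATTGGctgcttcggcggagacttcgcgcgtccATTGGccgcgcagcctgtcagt
Etv5, chr16:22439720-22439820, minus strand: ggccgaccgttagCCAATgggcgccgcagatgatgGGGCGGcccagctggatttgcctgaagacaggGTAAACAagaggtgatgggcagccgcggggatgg

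Over the whole 250 bases before the start site, the GC box letters occurred 5 times at Id4, 3 times at Etv5, 2 times at Foxo1 and 0 times at Lhx1, and 32.7% of all 32851 promoters in the table held them. The CCAAT letters occurred at all 4 genes, and in 33.8% of all promoters. The forkhead letters occurred at the outermost start of Etv5 alone among these 4 windows, and in 3.17% of all promoters. The window of the other Etv5 start, chr16:22438369-22438618, held neither the forkhead nor the GC box letters, and 18 CpG. The octamer letters (1.6% of all promoters) and the TATA box letters (12.4%) were in none of these 4 windows. The windows held 35 CpG at Id4, 27 at Etv5, 26 at Lhx1 and 20 at Foxo1, where the median of all promoters was 6. The window of Gfra1, which is not printed because an annotated exon of the gene reaches its end, held 10 CpG. A match of letters is a description and not a binding site.

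The ligand was looked for with the receptors. Gdnf itself was at 15.3, 13.7 and 15.1 FPKM in the SSC libraries. In iPSC it was listed at 0 in 5 of 6 libraries and at 0.0351 FPKM in SSCiPSC replicate 3. The SSC libraries thus held transcripts of ligand and receptors together, and, as given above, Sertoli markers as well. Gdnf fell by 3.95 (SE 0.224) on the log2(FPKM + 1) scale in SSCiPSC, with limma adjusted p = 8.92e-05, but it had passed the filter through SSC alone. Of the other GDNF family ligands, Nrtn was at 2.67 to 4.16 FPKM in SSCiPSC and at 0, 1.335 and 0.6375 FPKM in SSC. Nrtn was higher in SSCiPSC by 1.46 (SE 0.363, limma adjusted p = 0.0156), but it needed SSCiPSC to pass the filter. A count of 0 would allow 1.96 and 2.51 FPKM in SSC replicates 1 and 3, close to the lowest SSCiPSC value. Gdf15 did not pass the test, and Artn was too low to be tested. The locus of Pspn also held Alkbh7 and Clpp, and it was left out of the counts.

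Other receptors of the family were low in all groups. Gfra2 reached at most 1.14 FPKM and Gfra3 at most 1.14 FPKM in any library. Gfra4 was at 1.89, 2.16 and 2.41 FPKM in SSC and changed by -1.0 (SE 0.251) on the log2 scale in SSCiPSC, with limma adjusted p = 0.0146. In fiPSC its difference was -0.68 with limma adjusted p = 0.0504. Gfral matched no locus. Sdc3, a syndecan that binds GDNF, fell by 1.88 in SSCiPSC (SE 0.268, limma adjusted p = 0.00163), where it was below 1 FPKM in every library and so was tested through SSC alone. Ncam1, an adhesion molecule that can receive GDNF without Ret, was at 10.4, 9.20 and 11.8 FPKM in SSCiPSC, above the 4.49, 2.62 and 4.03 FPKM of SSC and the 3.51, 4.10 and 4.93 FPKM of fiPSC. Against SSC, Ncam1 rose by 1.30 (SE 0.242) in SSCiPSC with limma adjusted p = 0.00482. Its difference between the iPSC groups did not pass the adjustment (log2 fold change -1.15, limma adjusted p = 0.121).

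Of the adaptors and kinases that carry the Ret signal, 23 had a locus of their own and were tested. In SSCiPSC, 7 were higher, 9 lower and 7 did not pass, beside 26.2% higher and 24.1% lower of all loci, with a median log2 fold change of -0.28. Of the 9 that were lower, 1 (Dok5) was tested through SSC alone, as it was in fiPSC. In fiPSC, 8 were higher, 10 lower and 5 did not pass, beside 28.0% higher and 23.7% lower of all loci. The largest falls in SSCiPSC were those of Fyn, a Src family kinase, which fell by 3.20 (SE 0.168, limma adjusted p = 7.50e-05), and of the adaptor Grb10, which fell by 2.79 (SE 0.276, limma adjusted p = 0.000423). Fyn was at 42.9, 42.9 and 38.7 FPKM in SSC and between 2.68 and 4.02 FPKM in iPSC. The largest rises were those of the adaptor Grb7, by 2.58 (SE 0.313, limma adjusted p = 0.000868), and of the docking protein Gab1, by 2.15 (SE 0.140, limma adjusted p = 0.000128). Gab1 was at 24.6, 25.2 and 20.1 FPKM in SSC and between 97.8 and 121 FPKM in iPSC. The locus of Gab2 also held Kctd21 and was outside these counts, and it fell by 2.84 (SE 0.205, limma adjusted p = 0.000173) in SSCiPSC.

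Of 16 genes known to respond to GDNF in SSC cultures, 4 are among the 10 genes above and 11 of the other 12 were tested. In SSCiPSC, 9 of the 11 fell, 1 rose and 1 did not pass, with a median log2 fold change of -1.32 beside 0.11 for all loci, of which 24.1% fell and 26.2% rose. In fiPSC, 8 fell, 1 rose and 2 did not pass, with a median of -1.41 beside 0.17 for all loci, of which 23.7% fell and 28.0% rose. In SSCiPSC, Egr3, Cxcr4 and Tspan8 were below 1 FPKM in every library and were tested through SSC alone, which leaves 6 other falls. Among these 6, T, Pou3f1, Egr2 and Ccnd2 did not reach 1 FPKM in all SSCiPSC libraries. They too needed SSC to pass the filter, which favored a fall. In fiPSC, Egr3, Tspan8 and T were below 1 FPKM in every library and were tested through SSC alone, which leaves 5. Of these 5, Egr2, Cxcr4 and Ccnd2 did not reach 1 FPKM in all fiPSC libraries and also needed SSC to pass. The largest falls were those of the early growth response factor Egr3, by 3.99 (SE 0.279, limma adjusted p = 0.000156), and of the cyclin Ccnd2, by 3.96 (SE 0.231, limma adjusted p = 9.58e-05). Ccnd2 was at 33.5, 34.7 and 33.9 FPKM in SSC and at most at 1.74 FPKM in iPSC. Mycn, a MYC family factor of stem cells, rose by 2.08 (SE 0.224, limma adjusted p = 0.000565). Among the GDNF-responsive genes tested, Mycn and Etv5 were thus the 2 that rose in SSCiPSC.

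**Figure D4:**
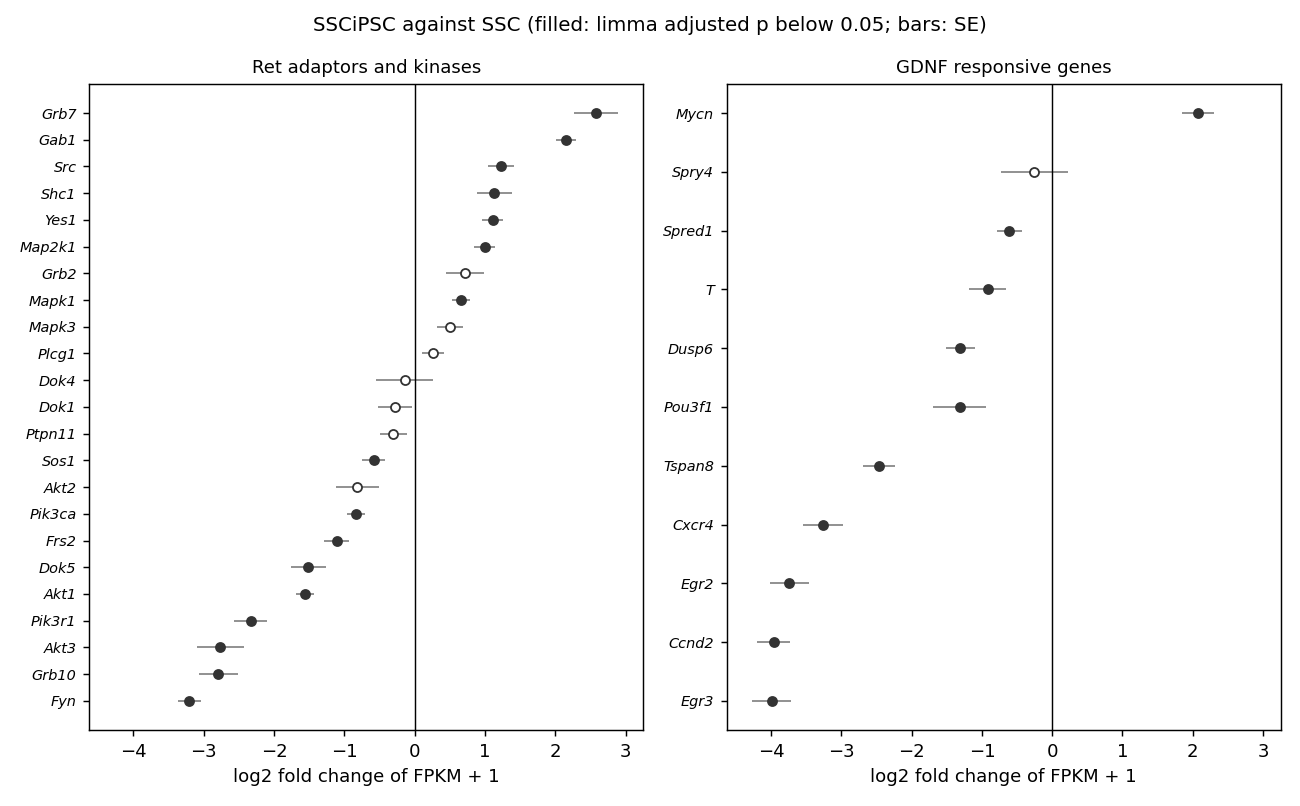
Log2 fold change of FPKM + 1 in SSCiPSC against SSC for the 23 Ret adaptors and kinases (left) and 11 further GDNF-responsive genes (right), with bars of 1 SE. Filled points passed the test. The left panel runs from -3.20 for Fyn to 2.58 for Grb7, and in the right panel Mycn is the one filled point above zero.

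Relatives of the regulators were compared with them to see whether families moved together. In the PEA3 family Etv4 rose with Etv5. Etv4 was at 11.7, 15.8 and 15.1 FPKM in SSC and rose by 1.67 (SE 0.303, limma adjusted p = 0.00434) in SSCiPSC. Etv1 was below 1 FPKM in every SSC library and was higher in SSCiPSC by 1.64 (SE 0.248, limma adjusted p = 0.00201), but it had passed the filter through iPSC alone, which fixed its direction. In fiPSC the differences of Etv4 and Etv1 were 1.42 and 1.70.

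In the Id and E protein family, Id2 fell with Id4, its log2 fold change being -2.82 (SE 0.287, limma adjusted p = 0.000472), and so did the E protein Tcf12, with -1.97 (SE 0.138, limma adjusted p = 0.000156). Id1, Id3, Tcf3 and Tcf4 did not pass in SSCiPSC, with log2 fold changes of -0.69, -0.50, -0.01 and -0.38. In fiPSC Id1 also fell, by 1.05 (limma adjusted p = 0.0312). Id4 and Id2 were the 2 Id genes that fell in both iPSC groups.

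In the FoxO family, Foxo6 fell with Foxo1, from 9.43, 7.66 and 8.28 FPKM in SSC to at most 1.36 FPKM in iPSC (-2.27 in SSCiPSC, SE 0.251, limma adjusted p = 0.000613). Foxo3 and Foxo4 were at -0.43 and 0.40 in SSCiPSC and did not pass, and Foxo4 rose by 0.64 in fiPSC (limma adjusted p = 0.0408). In the Sall family, Sall1 rose with Sall4, by 1.74 (SE 0.250, limma adjusted p = 0.00167), Sall2 did not pass in SSCiPSC (0.14) but rose by 0.79 in fiPSC (limma adjusted p = 0.0156), and Sall3 stayed at or below 1.19 FPKM in every library and was not tested.

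Bcl6, the relative of Bcl6b with a locus of its own, was at 9.57, 10.4 and 13.6 FPKM in SSC and fell by 2.90 (SE 0.256, limma adjusted p = 0.000298). Lhx2 fell by 2.38 (SE 0.325, limma adjusted p = 0.00135), Lhx5 was at most at 0.417 FPKM, and Lhx9 matched no locus. Both Bcl6 and Lhx2 were below 1 FPKM in every SSCiPSC library and were tested there through SSC alone. Nanos3, the germ cell relative of Nanos2, was at 13.8, 24.0 and 11.1 FPKM in SSC and fell by 2.05 (SE 0.324, limma adjusted p = 0.00244), while Nanos1 did not pass (-0.98, limma adjusted p = 0.0700).

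**Figure D5:**
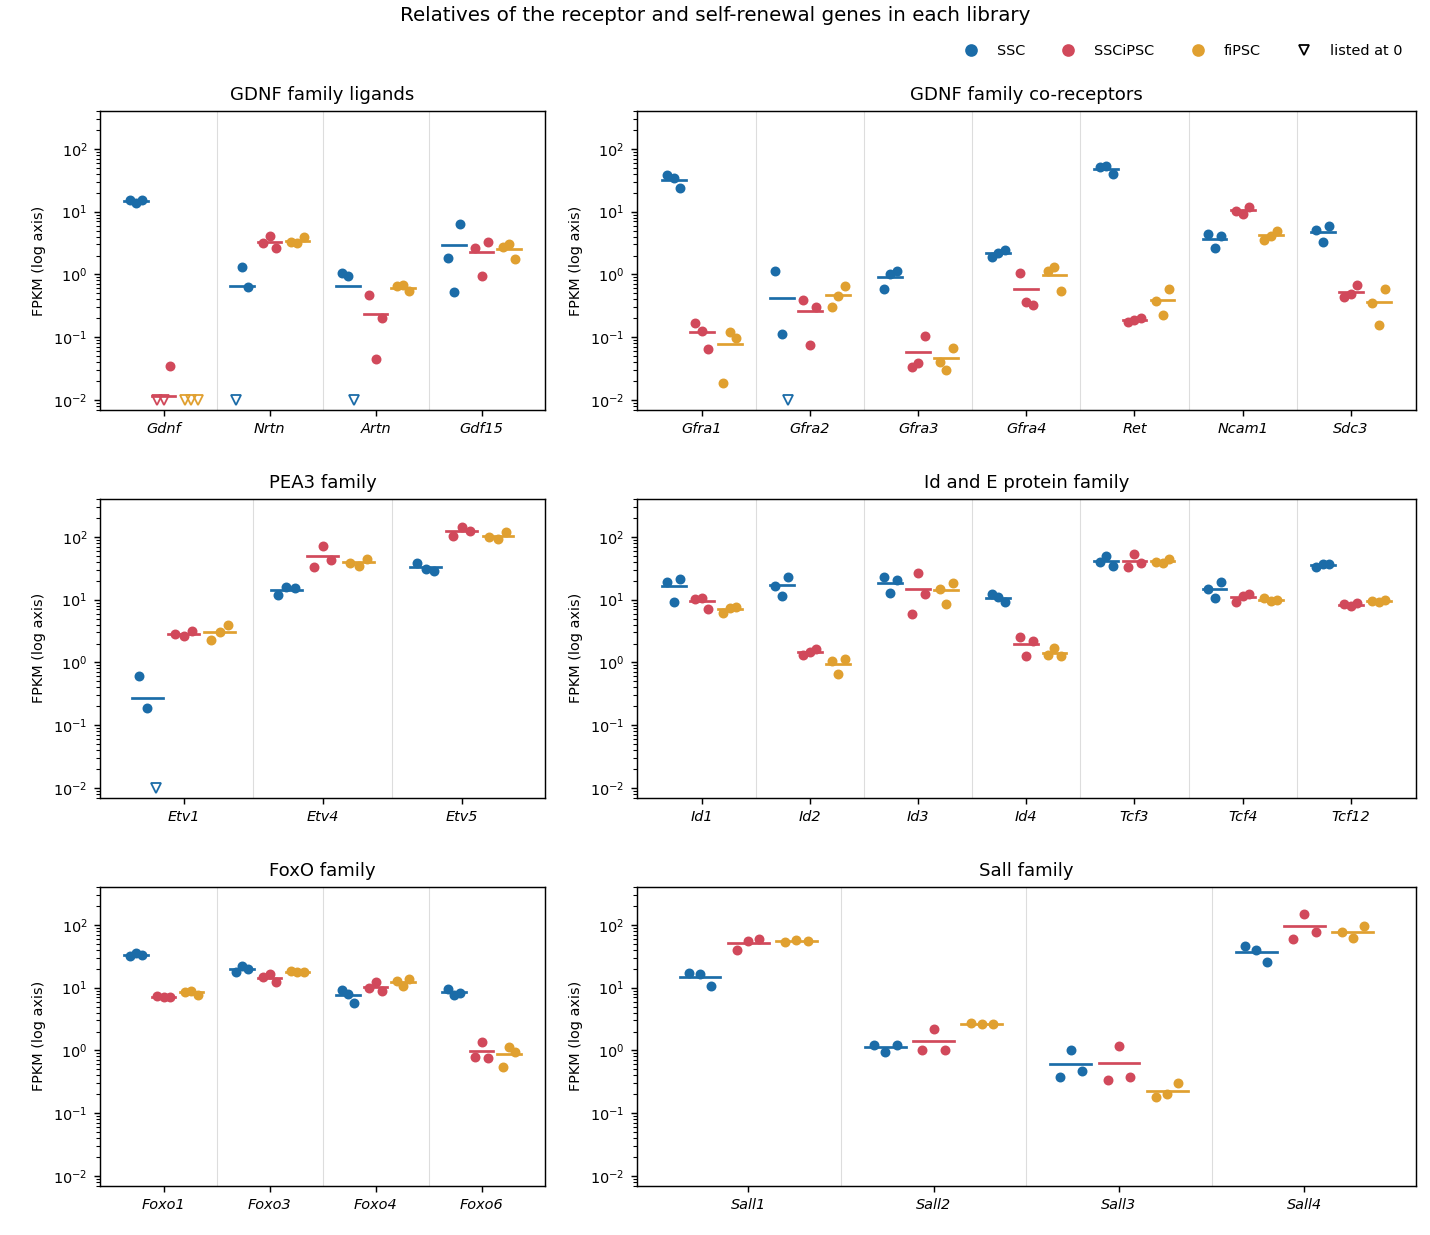
FPKM of GDNF family ligands and co-receptors and of 4 transcription factor families in each library on log axes, with points for libraries, bars for group means and open triangles for libraries listed at 0. All 3 PEA3 genes are higher in iPSC, while the Id, FoxO and Sall panels each hold genes whose groups overlap beside genes that stand apart.

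Other genes of undifferentiated spermatogonia were split as well. Apart from the 10 genes, 17 were tested, and in SSCiPSC 7 rose, 8 fell and 2 did not pass, with a median log2 fold change of 0.24, beside 26.2% that rose and 24.1% that fell of all loci. In fiPSC 6 rose, 7 fell and 4 did not pass, beside 28.0% and 23.7% of all loci. Of the 8 that fell in SSCiPSC, 4 (Foxc2, Sox3, Shisa6 and Tspan8) were tested through SSC alone, and these 4 were also among the 7 in fiPSC on the same terms. Over the other 13 genes tested, 7 rose and 4 fell in SSCiPSC, with a median of 0.98. In fiPSC 6 of these 13 rose and 3 fell, with a median of 0.96. Pou5f1, the pluripotency factor that is also a reprogramming transgene here, rose by 5.72 (SE 0.200, limma adjusted p = 2.57e-05), and Upp1, a uridine phosphorylase, by 5.04 (SE 0.197, limma adjusted p = 3.53e-05). The forkhead gene Foxc2 fell by 3.19 (SE 0.268, limma adjusted p = 0.000259) and Sox3 by 3.07 (SE 0.268, limma adjusted p = 0.000285). Of the pan germ cell genes with a locus of their own, 11 of 11 tested fell in SSCiPSC and 10 of 11 in fiPSC, with medians of -2.30 and -2.46, where 24.1% and 23.7% of all loci fell. Of these, Tdrd1 and Piwil4 in SSCiPSC and Tdrd1 in fiPSC were tested through SSC alone. The locus of Dnd1 also held Hars and was outside this count, and it rose by 1.19 (SE 0.160, limma adjusted p = 0.00131) in SSCiPSC. Tex101, a germ cell surface protein, fell by 4.65 (SE 0.263, limma adjusted p = 8.91e-05), and Tdrd1, of the piRNA pathway, fell by 4.44 (SE 0.232, limma adjusted p = 7.48e-05). Sall4 and Etv5 thus moved against these 11 germ cell genes and with the 9 pluripotency genes tested on a locus of their own, all of which rose in SSCiPSC. The largest of these rises were those of the pluripotency factor Nanog, by 8.83 (SE 0.132, limma adjusted p = 2.41e-06), and of the NODAL co-receptor Tdgf1, by 8.04 (SE 0.252, limma adjusted p = 2.06e-05), and 5 of the 9, these included, were tested through iPSC alone. Among the 9, Pou5f1, Sox2 and Klf4 are also reprogramming transgenes here. Whether their values hold transgene transcripts was not tested.

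The genes most like Gfra1 over the 9 libraries by Pearson correlation of log2(FPKM + 1), among 9934 genes, were Ephb1, Myct1, Cst9, Zbtb16 and Nckap5, each with r of at least 0.999. For Ret they were Glis3, Capn6, Egr4, Xylt1 and Zbtb16. With 2 such separate clusters of libraries a high r is common, since 21.4% of all genes reached r above 0.9 with Gfra1 and 21.7% with Ret. For Sall4 they were Grwd1 (r = 0.991), Cpsf1, Lin28a, Rpusd2 and Ddx56, and 4.10% of genes passed 0.9. Lin28a, an RNA-binding protein of pluripotent cells and spermatogonia, was at 44.3, 45.4 and 32.2 FPKM in SSC and at 65.2, 149 and 73.8 FPKM in SSCiPSC, so that it was highest in the same SSCiPSC replicate 2 as Sall4.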

How the data were processed

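RNA was sequenced from 9 libraries, 3 for each of SSC, SSCiPSC and fiPSC, and the labels gave the groups. The submitters' processing notes name Trimmomatic 0.32, TopHat2 2.0.9, Bowtie2 2.1.0, Cufflinks 2.2.1 and Cuffdiff. They name mm9, but the coordinates fitted GRCm38 genes, which were used. The authors deposited 1 FPKM value per locus and library. Of the loci, 70.2% have no strand, and 1 with a blank value was left out.

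Loci were named from GENCODE M21 by at least 50% overlap both ways, or else by the best overlapping locus, and the highest mean stood for a gene with several. For Gfra4, Sdc3, Src, Pou3f1, Nefm, Sox3, Tex101 and 4 other list genes the locus covered under 50% of the gene. Loci shared with another protein-coding gene were left out of the lists. Depth was estimated from the smallest steps of FPKM at short loci.

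Groups were compared with limma 3.58.1 (R 4.3.3, lmFit, eBayes with a trend) on log2(FPKM + 1), keeping a locus that reached 1 FPKM in 3 or more of the 6 libraries compared, with a threshold of 0.05 after Benjamini-Hochberg adjustment over every locus. In simulated data it recovered 55.5% of 200 changed loci among 36544 for SSCiPSC against SSC (log2 change 2) with 7.50% false calls. The same simulation recovered 63% for fiPSC against SSC with 6.67% false calls, and 79.5% for fiPSC against SSCiPSC with 5.36% false calls. It changed only 200 loci and gave both groups the same spread at a locus. In the real SSCiPSC against SSC 50.3% of loci passed, so these rates need not hold for the comparisons with SSC. Tables and plots used Python 3.11.15, pandas 2.3.3 and matplotlib 3.10.9.

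The genes and lists were chosen with earlier results of these data known. Every one of the 10 genes is named. From the other lists the text names the 2 largest changes in each direction that passed in SSCiPSC against SSC, every gene of a family with a locus, the 5 genes most like Gfra1, Ret and Sall4, and the most abundant gene of each cell type list. Genes of the observations follow the same rule. The alternatives were no filter, a filter on a mean of 5 FPKM or more, a pseudocount of 0.1, median-ratio scaling, quantile normalization, no trend in eBayes, a fit of all 9 libraries, a block for the replicate number, the sum over a gene's loci, and leaving out each library in turn. The authors' object summary was not used.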

Additional observations from a re-analysis of the deposited data

How the results depend on the processing

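The 7 genes that fell, the Bcl6b locus among them, and Etv5 kept their direction against SSC and passed the test under every alternative in which they were tested. For Gfra1, Ret, Zbtb16 and Lhx1 this adds little, since most alternatives kept the filter that had fixed their direction. Etv5 in SSCiPSC was 1.22 under quantile normalization against 1.87. A pseudocount of 0.1 moved Gfra1, Ret, Zbtb16 and Lhx1 to -7.18, -7.37, -8.66 and -6.23 in SSCiPSC and to -7.51, -6.65, -8.29 and -5.73 in fiPSC, and the Bcl6b locus to -3.02 in SSCiPSC. Summing the loci of a gene moved Ret to -6.12 and Zbtb16 to -7.15 in SSCiPSC, and to -5.80 and -7.08 in fiPSC. Lhx1 was below the filter of a mean of at least 5 FPKM. Sall4 kept its direction but did not pass in SSCiPSC under quantile normalization (0.66, limma adjusted p = 0.162) or without SSC replicate 2, SSC replicate 3, SSCiPSC replicate 2 or SSCiPSC replicate 3 (0.88 to 1.36), and in fiPSC under quantile normalization (0.58, limma adjusted p = 0.108) or without fiPSC replicate 1 or 3 (1.07 and 0.92). Its difference of fiPSC from SSCiPSC was -0.19 and became 0.20 without SSCiPSC replicate 2 (-0.47 to 0.20 with a library left out). The cause was not tested. The loci that passed numbered 18396, 19680 and 23 in SSCiPSC against SSC, fiPSC against SSC and fiPSC against SSCiPSC. With a mean of at least 5 FPKM, which tests fewer loci, they were 10070, 10528 and 10. For fiPSC against SSCiPSC there were 11 with all 9 libraries in the fit and 6 to 20 with a library left out. The balance of higher and lower loci in SSCiPSC against SSC, 9582 to 8814, turned to 8667 to 9593 under median-ratio scaling and 8861 to 9187 under quantile normalization, which also turned that of fiPSC against SSC from 10658 to 9022 into 9690 to 9925. Median-ratio scaling moved the median log2 fold change of all loci in SSCiPSC against SSC from 0.11 to 0.00, and quantile normalization moved that of fiPSC against SSC from 0.17 to 0.05. Whether the replicate numbers pair the samples is not given in the sources used here. Deviations from the group means correlated between -0.236 and 0.0214 for libraries with the same number. For libraries with other numbers they correlated between -0.134 and 0.196. Deviations from a mean of 3 libraries are tied to each other, so these values cannot decide it. With the replicate block 6 loci passed in fiPSC against SSCiPSC, 16926 in SSCiPSC against SSC and 17546 in fiPSC against SSC, with all 9 genes still among them in both comparisons with SSC. The SSC libraries were shallower, with 18.9% to 35.4% of loci at 0 against 9.64% to 13.9% in iPSC.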

Other observations

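Of the receptors for other niche factors of SSC, 9 with a locus of their own were tested. In SSCiPSC against SSC, 5 of them fell and 0 rose, with a median log2 fold change of -0.78 beside 0.11 for all loci, of which 24.1% fell and 26.2% rose, and in fiPSC 6 fell, where 23.7% of all loci did. Cxcr4 and Csf1r in SSCiPSC, and Csf1r in fiPSC, were below 1 FPKM in every library and were tested through SSC alone. The locus of Fgfr2 also held Ctbp2 and was outside this count, and it rose by 2.36 (SE 0.317, limma adjusted p = 0.00127) in SSCiPSC and by 2.16 (SE 0.269, limma adjusted p = 0.000996) in fiPSC. Igf1r, the receptor of insulin-like growth factor 1, was at 100.5, 103.5 and 89.9 FPKM in SSC and between 7.31 and 10.5 FPKM in iPSC, and it fell by 3.45 (SE 0.127, limma adjusted p = 3.00e-05) in SSCiPSC. Cxcr4, a chemokine receptor, fell by 3.26 (SE 0.285, limma adjusted p = 0.000287).

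Genes of differentiating spermatogonia were split. Of 7 tested in SSCiPSC, 2 rose, 3 fell and 2 did not pass, beside 26.2% that rose and 24.1% that fell of all loci. Sohlh1, a germ cell transcription factor, fell by 4.10 (SE 0.364, limma adjusted p = 0.000299), tested through SSC alone, and Rhox13 by 1.39 (SE 0.448, limma adjusted p = 0.0396). Kit, the receptor that appears as spermatogonia differentiate and a gene also of the mast cell list, rose by 2.14 (SE 0.140, limma adjusted p = 0.000128), and Sohlh2 rose by 1.37 (SE 0.267, limma adjusted p = 0.00572).

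Among somatic lists in SSCiPSC against SSC, 8 of 9 Sertoli genes tested fell, where 24.1% of all loci fell and 26.2% rose. The largest Sertoli falls were those of Cst12, a cystatin, with a log2 fold change of -7.81 (SE 0.178), and of Defb19, a defensin, with -7.68 (SE 0.144), while Rhox5 rose by 6.66 (SE 0.212, limma adjusted p = 2.06e-05). All 4 Leydig genes tested fell, led by the steroid enzymes Cyp11a1 (-6.44, SE 0.317) and Cyp17a1 (-5.80, SE 0.229). Of the peritubular genes 2 of 4 fell, the smooth muscle actin Acta2 (-3.63, SE 0.163) and the smooth muscle myosin Myh11 (-3.50, SE 0.245). Of the endothelial genes 4 of 6 fell, led by the cadherin Cdh5 (-4.36, SE 0.327) and the VEGF receptor Kdr (-3.64, SE 0.279), and Pecam1 rose by 1.29 (SE 0.296, limma adjusted p = 0.0113). In the macrophage list 6 of 7 fell, led by the complement genes C1qa (-3.58, SE 0.778) and C1qc (-3.40, SE 0.725). In the mast cell list 4 of 5 fell, led by the proteases Tpsab1 (-7.32, SE 0.753) and Cma1 (-6.01, SE 0.862), and the fifth, Kit, rose as given above. In the fibroblast list 5 of 7 fell, led by the proteoglycan Dcn (-2.66, SE 0.608) and the receptor Pdgfra (-2.26, SE 0.264). The highest limma adjusted p among the falls named in these lists was 0.0110, for Dcn. Tested through SSC alone were 6 of the 8 Sertoli falls, 1 of the 2 peritubular falls, none of the 5 fibroblast falls and every Leydig, endothelial, macrophage and mast cell fall, and for these the filter fixed the direction.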
